A study of Mus musculus with 8 samples.

Results

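Lymphatic endothelial cells (LECs) of the mouse synovium were recovered from 3 unsorted single-cell RNA libraries of ankle and wrist joints. They were selected on their own UMI counts, as barcodes outside the authors' deposited cell annotation with at least 500 genes, at most 10% of UMIs (unique molecular identifiers, 1 per captured transcript) from mitochondrial genes, no UMI of Pdgfra or Ptprc, and a UMI of at least 2 of Prox1, Mmrn1 and Lyve1. The rule found 298 cells among 30815 barcodes that passed the gene and mitochondrial limits, or 0.967%, and among 35811 barcodes in all. The untreated library held 112 of them, the TNFi library 99 and the IL-17i library 87. Because the cells were chosen by their UMIs of Prox1, Mmrn1, Lyve1, Pdgfra and Ptprc, the levels of these genes are no result here.

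LECs line the vessels that drain fluid, proteins and leukocytes from tissue. PROX1 sets and keeps their identity, VEGFR3 (Flt4) receives their growth signals, and CCL21 on initial lymphatics draws CCR7-bearing dendritic cells and T cells into the vessel. In inflamed joints this drainage is one of the routes by which cells and cytokines leave the synovium.

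Each unsorted library pooled viable CD45- cells of 4 mice aged 8 to 10 weeks, labelled strain B6-Tg(TNF)197Gkl, and every animal carried its own hashtag antibody. Hashtags 1 to 3 marked arthritic hTNFtg197 mice, which carry a human TNF transgene and had received Il23mc for 9 days, and hashtag 4 marked an untreated wild-type mouse. The arthritic mice had no inhibitor in the untreated library, anti-hTNF in the TNFi library and anti-mIL-17a in the IL-17i library. All arthritic animals compared here therefore shared the transgene and Il23mc, and treatment and library cannot be told apart. A further library of FAP+ Pdpn+ cells from 5 arthritic mice gave 1 LEC among 10002 barcodes that passed the same limits.

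The animal behind each LEC was read from the 15-base oligonucleotides of the hashtag antibodies, which were the same in every library and are shown because each comparison between animals rests on them. The base order is 5′ to 3′.
Hashtag 1: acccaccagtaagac
Hashtag 2: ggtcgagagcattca
Hashtag 3: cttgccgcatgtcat
Hashtag 4: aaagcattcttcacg
Of the 298 LECs, 186 were given an animal, 94 had too little hashtag signal and 18 carried more than 1 hashtag. Unlabelled cells made up 36.6%, 22.2% and 35.6% of LECs in the untreated, TNFi and IL-17i libraries, against 28.4%, 25.1% and 32.0% of all barcodes. The untreated animals 1 to 3 had 12, 22 and 31 LECs, the TNFi animals 24, 30 and 6, the IL-17i animals 16, 23 and 11, and the healthy animals of the untreated, TNFi and IL-17i libraries 3, 7 and 1. Libraries of a pair shared 32 to 51 barcode sequences, and none was an LEC in both.

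LECs had a median of 8280, 7687 and 8236 UMIs in the untreated, TNFi and IL-17i libraries, close to the 9611, 9267 and 9561 UMIs of blood endothelial cells (BECs). BECs were 935 unannotated barcodes under the same limits with no UMI of Pdgfra, Ptprc, Prox1, Mmrn1 or Lyve1 and at least 2 of Flt1, Emcn, Vwf, Plvap and Pecam1. All 15 lymphatic markers outside the rule had UMIs in each library, and their sum was 17759, 23626 and 26319 UMIs per 1000000 UMIs (CPM) in LECs against 377, 227 and 305 in BECs. Of 15 macrophage and leukocyte markers, 10 were at 0 in each library, and Mrc1, which lymphatic endothelium also expresses, gave most of the remaining UMIs. Low levels of these markers were partly set by the rule, which left out barcodes with a Ptprc UMI. Fibroblast markers summed to 3278, 3546 and 2699 CPM in LECs and to 3109, 3100 and 3158 in BECs, against 35198, 38029 and 34427 in annotated fibroblasts. Every LEC had a UMI of Saa3, an acute-phase gene that reached 36907, 47059 and 13980 CPM in fibroblasts, and the part of free RNA in any LEC level was not tested.

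At the limit of the rule, 206 LECs had all 3 marker genes and 92 had exactly 2, while 321 other barcodes had exactly 1. Ccl21a was at 19741 CPM in cells with 3 markers, 8666 with 2, 111 with 1 and 6.09 in BECs. Flt4 followed with 616, 240, 12.7 and 9.65 CPM, and Reln, a secreted glycoprotein of lymphatic endothelium, with 901, 352, 8.50 and 1.12 CPM. The pan-endothelial cadherin gene Cdh5 stayed between 548 and 687 CPM in all 4 sets. Several blood vessel genes ran the other way: Flt1 was at 8.87, 262, 390 and 581 CPM and Vwf at 11.3, 380, 397 and 606. Other genes of the blood endothelial list did not, as Podxl was at 135, 133, 59.5 and 90.8 CPM and Gpihbp1 at 89.2, 145, 85.7 and 110. BECs were chosen partly on Flt1 and Vwf, so the BEC levels of Flt1 and Vwf are no result.

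A minority of the chosen cells held blood endothelial genes and little Ccl21a. In 24 LECs, of which 5 were untreated, 13 TNFi and 6 IL-17i, at least 2 of Flt1, Vwf and Ackr1 had a UMI. These 24 had 62.8 CPM of Ccl21a and 5504 of Selp (P-selectin), while the other 274 had 18574 and 156. Their median was 13502 UMIs, against 7838 in the others, and whether they held more than 1 cell was not tested. The called genes, and other named genes whose direction turns without these cells, are given with and without them.

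**Figure D1:**
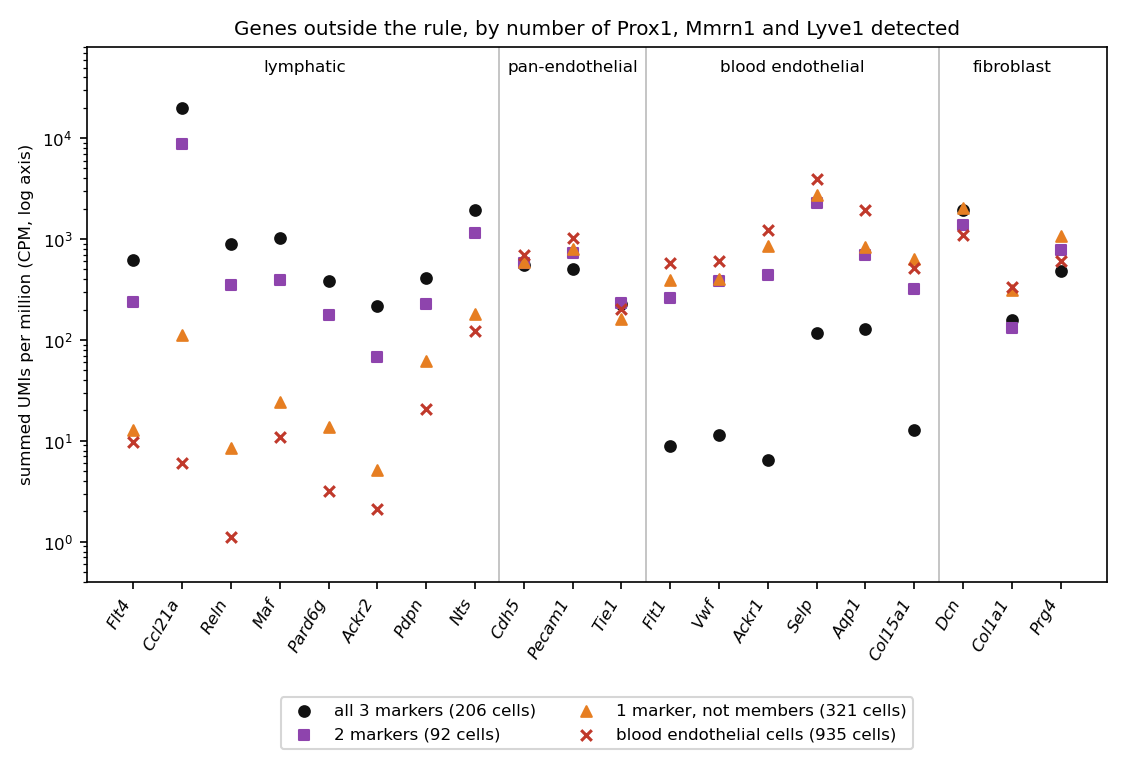
Summed CPM (log axis) of 20 genes the LEC rule did not use, in cells with all 3, 2 or 1 of Prox1, Mmrn1 and Lyve1 and in BECs, without replicates. BECs were chosen partly on Flt1, Vwf and Pecam1. Ccl21a, Flt4 and Reln are lower and Flt1 and Vwf higher in cells with 1 marker than in cells with 3, while Cdh5 stays between 548 and 687.

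Set against BECs, the gene that stood highest in LECs was Ccl21a, with 12762, 18470 and 19367 CPM in the untreated, TNFi and IL-17i libraries and 4.08, 4.07 and 9.44 in BECs. The annotation also lists Ccl21b, a near-identical copy, so the level of Ccl21a is uncertain. The next 3 genes, ranked by the lowest LEC to BEC ratio of the 3 libraries, were Reln, the transcription factor gene Maf, and Flt4, with lowest ratios of 58.7, 33.9 and 26.3 after 10 CPM were added to both levels. Further down stood the guidance ligands Sema3d and Sema3a, the chemokine scavenger Ackr2, podoplanin (Pdpn) and the transcription factor Tbx1. These ratios describe the cells and carry no test, since the rule chose LECs and BECs on the same transcriptomes.

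RNA of mouse receptors for TNF and IL-17 was present in LECs. Tnfrsf1a, the receptor for soluble TNF in most cells, was at 133 (95% exact Poisson interval 113 to 157), 156 (131 to 185) and 130 (107 to 156) CPM in the untreated, TNFi and IL-17i libraries. Tnfrsf1b, which binds membrane TNF, was at 4.48, 16.97 and 12.7 CPM, with a UMI in 5, 10 and 10 cells. Which of these mouse receptors the blocked human TNF binds was not tested. Il17ra was at 70.7, 89.4 and 67.2 CPM, and its partner Il17rc at 13.4, 6.79 and 12.7. These intervals cover counting error only. In the gene tests below Tnfrsf1a and Il17ra passed the filter on low counts and neither was called, whereas Tnfrsf1b and Il17rc did not pass it.

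Clustering of the 298 LECs gave 6 groups, numbered by size, whose genes and shares are described without a test. Cluster 0, with 91 cells, was led by Ttn, Glycam1, Npy, Timp4 and Postn, and also held the muscle genes Acta1, Mylpf and Tnnt3. Of all Npy UMIs in TNFi LECs, 1 cell held 93.7%. Glycam1, a mucin-like ligand of L-selectin known from high endothelial venules, was at 772 CPM there and at 70.9 in all other LECs. Cluster 1, with 90 cells, was led by Spp1 (1859 against 95.9 CPM), Ddit4l and Gdf15, followed by Igfbp5, Ibsp and Nts, the neurotensin gene, at 3942 against 957 CPM. Cluster 2 held 53 cells with the highest Ccl21a (30147 CPM) and Maf (2043 CPM) of the 6 clusters.

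Cluster 3, with 31 cells, was led by the heat shock genes Hspa1a and Hspa1b at 8966 and 6367 CPM, followed by Cxcl10. Cluster 4, with 26 cells, had Olr1, Ubd, Vwf, Ackr1 and Sele on top, 53.8 CPM of Ccl21a and 23 of the 24 cells with blood endothelial genes. Cluster 5 held 7 TNFi cells with a median of 1775 UMIs and no animal, led by Wfdc17. Cluster 4 took 5.36%, 14.1% and 6.90% of LECs in the untreated, TNFi and IL-17i libraries, and cluster 1 took 27.7%, 25.3% and 39.1%. The listed valve and collecting-vessel genes did not share an order over the clusters. Foxc2, a transcription factor of lymphatic valves, ranged from 39.6 to 67.2 CPM in clusters 0, 1, 3 and 4. It was highest in cluster 4 and at 0 in clusters 2 and 5. Fn1 was at 892 and 1084 CPM in clusters 0 and 3 and at 234 and 320 in clusters 1 and 2. Itga9 was at 152, 168, 187 and 121 CPM in clusters 0 to 3, and Nfatc1 at 98.0, 290, 64.5 and 81.0.

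**Figure D2:**
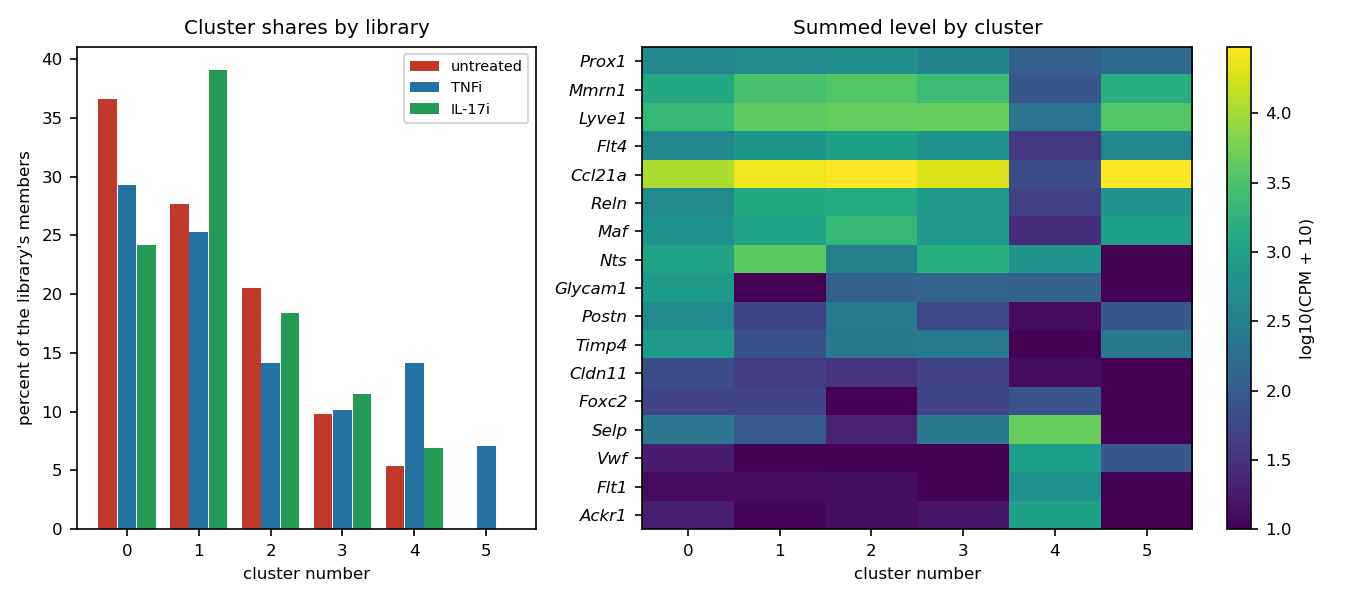
Left, percent of each library's LECs in clusters 0 to 5; right, summed level of marker genes by cluster as log10(CPM + 10). Cluster 4 is low in Ccl21a (53.8 CPM) and carries Vwf, Flt1, Ackr1 and Selp, and cluster 5 comes from the TNFi library alone.

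In each library the healthy animal had a smaller share of LECs than the mean of the arthritic animals, a difference that did not pass the adjusted threshold. As a share of an animal's barcodes that passed the limits, they made up 1.16%, 0.884% and 1.37% in the untreated animals, 1.24%, 1.39% and 0.599% in the TNFi animals and 0.986%, 0.910% and 0.444% in the IL-17i animals. The healthy animals of the same libraries had 0.316%, 0.750% and 0.175%. Healthy minus arthritic shares averaged -0.583 percentage points over libraries, with the healthy animal below the arthritic mean in 3 of 3 libraries (two-sided exact permutation test within libraries, p = 0.0312, adjusted over 4 share tests 0.125, smallest possible p 0.0156). In the TNFi library the healthy animal lay above arthritic animal 3. These healthy shares rest on 11 LECs. Fibroblasts under the healthy hashtag also carried RNA of both sexes in the TNFi library (2668 Xist and 271 Y-linked UMIs) and the IL-17i library (2261 and 154), so some cells counted as healthy may belong to other animals. Some arthritic animals had both as well, with 291 and 4769 UMIs in untreated animal 2 and 197 and 3340 in IL-17i animal 1. These fibroblasts were assigned by the authors' hashtag calls, so the calls used for LECs were not checked by them.

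Among the 3 arthritic groups the mean share was 1.14% ± 0.242 (SD, n = 3) untreated, 1.08% ± 0.420 (n = 3) with TNFi and 0.780% ± 0.293 (n = 3) with IL-17i, and the groups overlapped (exact permutation test on F, p = 0.396, adjusted 0.529). As a share of endothelial cells, LECs made up 27.7% ± 3.23, 19.5% ± 4.39 and 18.2% ± 3.77 (SD, n = 3 each), with an exact permutation p of 0.0786, adjusted 0.157. All 3 untreated animals lay above all treated ones, but the nearest were at 24.0% and 23.8%. The order did not hold after thinning to 2000 UMIs, with untreated animal 1 at 17.6% and TNFi animal 1 at 20.2%, or with all 3 markers required, with untreated animal 1 at 15.6% and IL-17i animal 1 at 19.1%. Between healthy and arthritic animals the share of endothelial cells showed a difference of 0.768 percentage points, with a healthy range of 7.14% to 33.3% (exact permutation p = 0.812). A share depends on how many other cells were recovered, so fewer LECs and more of other cells cannot be told apart.

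**Figure D3:**
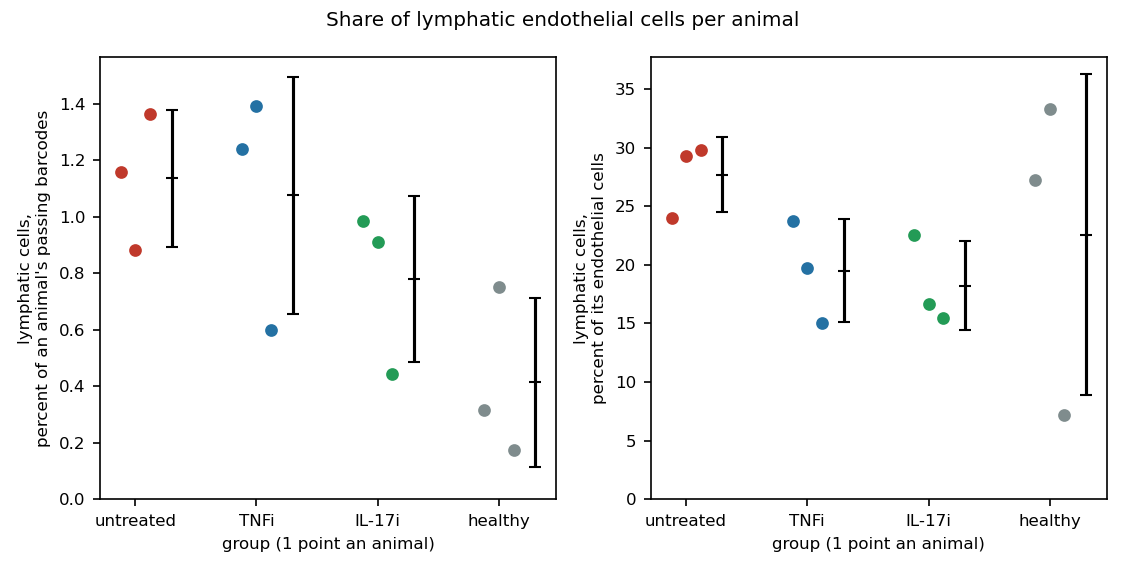
LECs per animal as percent of its barcodes that passed the limits (left) and of its endothelial cells (right), with group mean ± SD (n = 3 animals). Healthy animals lie at 0.175% to 0.750% on the left, and untreated arthritic animals at 24.0% to 29.8% on the right.

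Gene levels were compared over UMIs summed per animal, for animals with at least 10 LECs. TNFi animal 3, with 6 LECs, was left out. That left 3 untreated, 2 TNFi and 3 IL-17i animals with 105371 to 458614 UMIs each, from 169 LECs, and 4621 genes after the filter on low counts, which hold 91.5% of the UMIs. No healthy group could be tested. Sex was unbalanced: both tested TNFi animals had Y-linked RNA, against 1 of 3 untreated and 1 of 3 IL-17i animals. Every log2 fold change with its standard error and adjusted p comes from edgeR's quasi-likelihood test with Benjamini-Hochberg adjustment over all genes tested, and levels per animal are CPM scaled by TMM factors. The p-values measure the spread between hashtagged animals, and the TNFi and IL-17i comparisons share the untreated animals.

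Between IL-17i and untreated LECs 6 of 4621 genes differed at the threshold in edgeR's quasi-likelihood test, or 0.13%. With IL-17i 3 were higher (0.0649%) and 3 lower (0.0649%), and 402 genes, or 8.7%, had an unadjusted p under 0.05. Higher were the class II antigen presentation gene H2-Ab1, the urokinase gene Plau and the matrix protein gene Abi3bp. Lower were Glycam1, the matricellular gene Sparcl1 and Saa3. DESeq2 called 19 genes, these 6 included.

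H2-Ab1 (chr17:34257689-34269419, plus strand, GRCm38) was at 0, 3.72 and 14.2 CPM in the untreated animals and at 53.2, 154 and 114 in the IL-17i animals, with 35.2 and 31.0 in the TNFi animals. The 3 groups did not overlap. Of all genes tested, 7.01% lay higher and 6.51% lower in IL-17i than in untreated animals without overlap. The log2 fold change of IL-17i against untreated was 3.53 (SE 0.572, edgeR adjusted p = 0.0426). The untreated level rests on 0, 1 and 7 UMIs, so its fold is imprecise. In IL-17i animal 3, 4 cells had a UMI of H2-Ab1 and 1 of them gave 64.7% of these UMIs.

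Plau (chr14:20836660-20843385, plus strand) encodes urokinase, which activates plasminogen. It was at 30.0, 18.6 and 22.4 CPM untreated, 35.2 and 55.7 with TNFi and 74.5, 107 and 135 with IL-17i (log2 fold change against untreated 2.20, SE 0.377, edgeR adjusted p = 0.0426). Abi3bp (chr16:56477878-56690135, plus strand), an extracellular matrix protein, was at 210, 160 and 187 CPM untreated, 325 and 210 with TNFi and 479, 515 and 498 with IL-17i (1.43, SE 0.243, edgeR adjusted p = 0.0426). In both genes every IL-17i animal lay above every other animal, although 1 cell gave 80% of the Plau UMIs of IL-17i animal 3. In BECs of the same animals Plau and Abi3bp had log2 fold changes of 0.33 (edgeR adjusted p = 0.711) and 0.23 (0.824). The interaction test, described below, called neither gene as differing between LECs and BECs.

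Glycam1 (chr15:103562759-103565081, minus strand) was at 3001, 1013 and 234 CPM in the untreated animals, 369 and 430 in the TNFi animals and 10.6, 11.9 and 0 in the IL-17i animals, which had 2, 3 and 0 UMIs (log2 fold change of IL-17i against untreated -7.27, SE 0.972, edgeR adjusted p = 0.0193). A few cells carried this RNA: 24 untreated, 10 TNFi and 3 IL-17i LECs had a UMI, and 1 cell gave 99.7% of the UMIs of untreated animal 1, so the fitted size is imprecise. Over all LECs of a library the level was 646 (95% exact Poisson interval 600 to 695), 280 (246 to 317) and 6.95 (2.55 to 15.1) CPM. BECs were at 384, 115 and 69.3 CPM, with a log2 fold change of -2.78 that did not pass (edgeR adjusted p = 0.257), and under 1% of fibroblasts had a UMI at a median of 15213 UMIs.

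Sparcl1 (chr5:104079111-104113733, minus strand) was at 210, 85.6 and 110 CPM in untreated LECs, 26.4 and 27.9 with TNFi and 16.0, 23.8 and 6.73 with IL-17i (log2 fold change -2.84, SE 0.469, edgeR adjusted p = 0.0426). In untreated animals 1, 2 and 3 a single cell gave 100%, 91.3% and 87.0% of its UMIs, so the untreated level rests on 1 cell an animal. The gene was higher on the blood endothelial side of the rule, with 16.8 CPM in LECs with all 3 markers, 143 with 2 and 666 in BECs. Without the 24 cells with blood endothelial genes its library levels were 76.3, 4.06 and 10.2 CPM and the call was lost (-3.00, edgeR adjusted p = 0.204).

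Saa3 (chr7:46711998-46715700, minus strand), a serum amyloid A gene, was at 2221, 1542 and 1277 CPM untreated, 2225 and 1724 with TNFi and 548, 728 and 619 with IL-17i (log2 fold change -1.40, SE 0.240, edgeR adjusted p = 0.0426). The IL-17i animals lay below all others. Saa3 in fibroblasts of the same libraries moved with it, at 36907, 47059 and 13980 CPM, and the part of fibroblast RNA in the LEC level was not tested. A list of 10 arthritic fibroblast genes, taken as candidates for free RNA, had a median log2 fold change of -0.57 in IL-17i LECs. Saa3 was the 1 gene called, and the median over all genes was 0.02. With TNFi the list median was -0.58, beside 0.00 over all genes. In BECs the list medians were -0.70 with IL-17i and 0.01 with TNFi. In fibroblasts the list summed to 89012.5, 106302 and 56740 CPM in the untreated, TNFi and IL-17i libraries. Library sums, which also hold cells without an animal, were 7099, 8896 and 4727 CPM in LECs and 8132.5, 11512 and 5424 in BECs. A single cell gave 31.2% of the Saa3 UMIs of TNFi LECs.

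**Figure D4:**
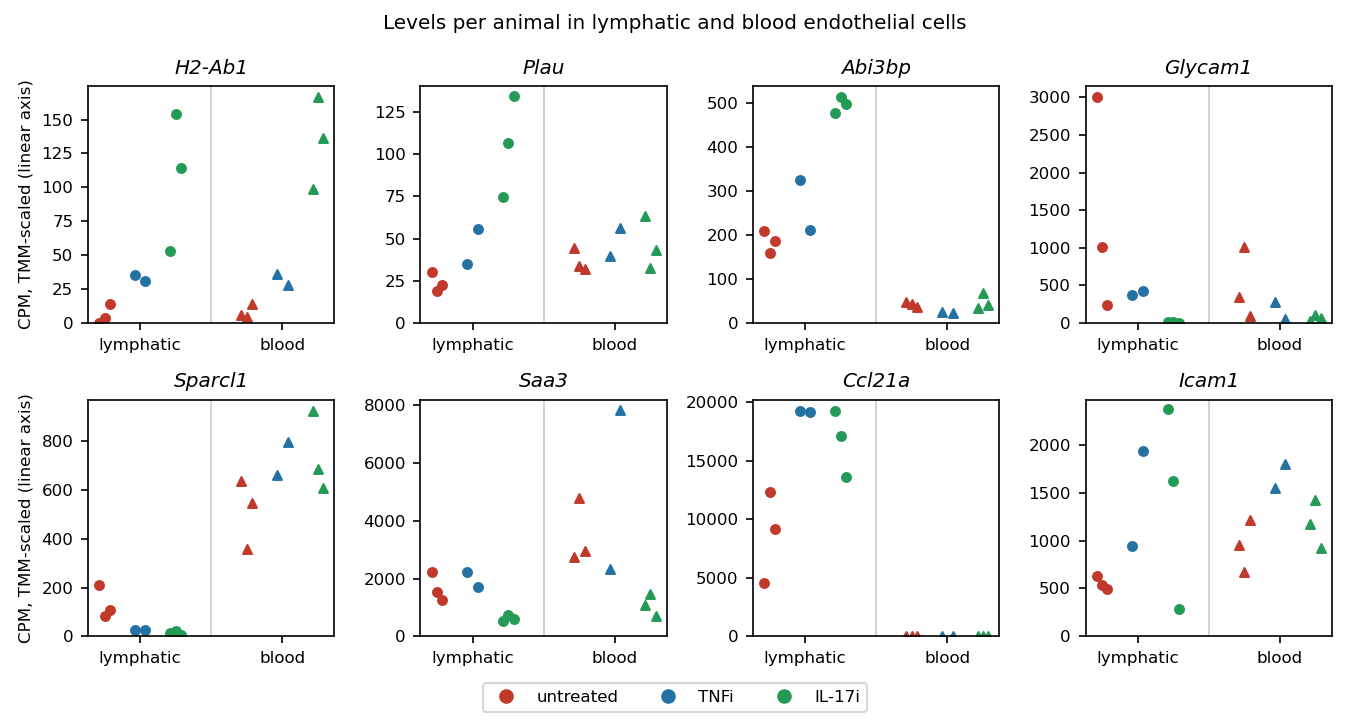
TMM-scaled CPM (linear axes that start at 0) of 8 genes in LECs and BECs of the 8 animals tested, 1 point an animal. Among LECs alone, H2-Ab1, Plau and Abi3bp are highest in IL-17i animals, and Glycam1, Sparcl1 and Saa3 are lowest there. Sparcl1 is at 357 CPM or more in every BEC sample.

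The 6 calls were near the threshold. Leaving out the 24 cells with blood endothelial genes kept 1 call, Glycam1 (edgeR adjusted p = 0.0169), and put the other 5 between 0.0551 and 0.204. A sex term, read from Xist and Y-linked RNA, kept Glycam1 and H2-Ab1 at 0.0219 each. Without IL-17i animal 2 no call of the 6 remained and edgeR adjusted p ranged from 0.106 to 0.201. Leaving out IL-17i animal 1 kept H2-Ab1 alone (0.0271), with the others at 0.0728 to 0.176, and leaving out IL-17i animal 3 kept Glycam1 alone (0.0364), with the others at 0.0599 to 0.116. Glycam1 was also the 1 call kept without untreated animal 1, where the others were at 0.0641 to 0.0910, and without untreated animal 3, at 0.0556 to 0.244. Without untreated animal 2, Glycam1 and Sparcl1 (0.0465) were kept and the others were at 0.116 to 0.192. Every alternative in which a gene was tested kept the direction of all 6.

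H2-Ab1 belongs to a list of 13 class II presentation and checkpoint genes, of which 6 were tested. In IL-17i against untreated LECs 5 of the 6 were above 0, 1 was called and the median log2 fold change was 2.38, while over all 4621 genes 2392 were above 0, 0.13% were called and the median was 0.02. H2-Eb1 had 0, 7.45 and 24.4 CPM untreated and 74.5, 119 and 108 with IL-17i (2.66, SE 0.507, edgeR adjusted p = 0.0757), and H2-Aa stood at 2.44 on the log2 scale (edgeR adjusted p = 0.194). The invariant chain gene Cd74 had 20.01, 11.2 and 140 CPM untreated and 319, 305 and 458 with IL-17i (2.32, SE 0.543, edgeR adjusted p = 0.188). Cd274, which encodes PD-L1, stood at 1.26 (edgeR adjusted p = 0.388) and Lgals9 at -0.35 (0.886).

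BECs of the same animals passed the test for all 4 class II genes, with log2 fold changes of 3.89 for H2-Ab1 (edgeR adjusted p = 0.00108), 4.07 for H2-Aa (0.00108), 4.00 for H2-Eb1 (0.0113) and 3.74 for Cd74 (0.0111). The interaction test called none of these genes as differing between LECs and BECs. Fibroblasts had 4.79, 8.93 and 25.2 CPM of H2-Ab1 in the untreated, TNFi and IL-17i libraries, against 8.06, 49.8 and 88.0 in LECs. In LECs 6, 18 and 25 cells had a UMI, or 5.36%, 18.2% and 28.7%, and in the deeper fibroblasts 4.10%, 8.67% and 15.5% had one. After thinning to 2000 UMIs a cell, the LEC shares were 0.917%, 7.61% and 13.1%. Summed macrophage and leukocyte markers were at 49.2, 45.3 and 54.4 CPM, with Adgre1, Cd163 and Timd4 at 0 in every library. The rule had left out barcodes with a Ptprc UMI, so low levels of these markers were partly set in advance.

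Promoters of the 2 class II genes in the RefSeq table, out of 3 searched, are printed because these genes stood together. Each line gives the 120 bases before the gene's start on GRCm38.p6, 5′ to 3′ on the gene's strand, with the sequence CTGATTGG, the inverted CCAAT (Y) box of class II promoters, in capitals.
H2-Aa: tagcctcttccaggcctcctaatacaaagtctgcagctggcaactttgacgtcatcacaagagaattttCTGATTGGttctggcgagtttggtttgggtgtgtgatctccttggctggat
H2-Eb1: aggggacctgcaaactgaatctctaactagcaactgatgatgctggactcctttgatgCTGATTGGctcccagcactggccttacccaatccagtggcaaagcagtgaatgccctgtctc
The H2-Aa window is chr17:34287824-34287943 on the minus strand and the H2-Eb1 window chr17:34305747-34305866 on the plus strand. The first base of the motif lay 51 and 62 bases before the start. On either strand CTGATTGG was found in 934 of 32851 promoter windows of this length, or 2.84%, so a match describes the sequence and shows no binding.

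No gene differed at the threshold between TNFi and untreated LECs, as edgeR's quasi-likelihood test called 0 of 4621 (0%) and DESeq2 called 0. With edgeR 283 genes, or 6.12%, had an unadjusted p under 0.05. The 10 genes with the smallest p are given as values. Plaur, the urokinase receptor gene, had 70.0, 55.8 and 54.9 CPM untreated and 158 and 229 with TNFi (log2 fold change 1.73, SE 0.312, edgeR adjusted p = 0.207). Under IL-17i it had 197, 143 and 222 CPM (1.66 against untreated, edgeR adjusted p = 0.0570).

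Npy, which encodes neuropeptide Y, had the smallest p with TNFi (log2 fold change 6.57, edgeR adjusted p = 0.207), but its level of 882 CPM in TNFi animal 2 faced 61.6 in TNFi animal 1, and 1 cell gave 99.65% of the UMIs of animal 2. Emp1, a membrane protein gene, had 490, 566 and 547 CPM untreated and 1284 and 1378 with TNFi (1.30, edgeR adjusted p = 0.281). Reln had 420, 491 and 331 against 800 and 963 CPM (1.08, edgeR adjusted p = 0.379). The others were Pde4b (1.38), the class I gene H2-T23 (1.32), Pglyrp1 (1.40), Aph1b (1.44), Mgp (2.00) and Sparcl1 (-2.16), with edgeR adjusted p from 0.281 to 0.379. Without the 24 cells with blood endothelial genes Mgp, a calcification inhibitor gene, turned to -1.05, and Plaur, Emp1 and Pde4b stood at 1.27, 0.88 and 0.90.

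IL-17i against TNFi LECs gave 0 calls of 4621 (0%) with edgeR's quasi-likelihood test and 9 with DESeq2, and 273 genes, or 5.91%, had an unadjusted p under 0.05. Saa3 and the clusterin gene Clu had the smallest p, with log2 fold changes of -1.64 and -1.99 (edgeR adjusted p = 0.0662 each). Clu had 708 and 926 CPM with TNFi, 250, 234 and 121 with IL-17i and 620, 443 and 778 untreated, so the IL-17i animals lay lowest. Postn (-2.98), Timp4 (-3.03) and Glycam1 (-5.49), all leading genes of cluster 0, and the genes Csf3 (-4.54), Ptgs2 (-3.56) and Pglyrp1 (-1.75) followed below 0. In TNFi animals 1 and 2, 1 cell gave 74.07% and 82.35% of the Ptgs2 UMIs. In TNFi animal 1 a single cell gave 100% of the Glycam1 and 62.5% of the Postn UMIs. Without TNFi animal 2 the log2 fold changes of Postn, Timp4 and Glycam1 were -1.63, -2.16 and -5.36. Prss23 (1.83) and Gm10076 (1.65) stood above 0. For the 8 genes after Saa3 and Clu, edgeR adjusted p ran from 0.0725 to 0.115. Without the 24 cells with blood endothelial genes Saa3, Clu, Postn, Pglyrp1, Prss23 and Gm10076 passed at an edgeR adjusted p of 0.0498 each.

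Whether the differences from untreated animals were unlike in LECs and BECs was tested within animals, over 7640 genes. Sparcl1 was the single call for both inhibitors, 0.0131% of genes each time, while 3.84% with TNFi and 5% with IL-17i had an unadjusted p under 0.05. Its log2 fold change was 2.71 lower in LECs than in BECs with TNFi (difference -2.71, SE 0.412, edgeR adjusted p = 0.0428) and 3.44 lower with IL-17i (-3.44, SE 0.415, edgeR adjusted p = 0.00221). The untreated LEC side of both differences rests on 1 cell an animal, as given above. BECs had 357 to 638 CPM untreated and 610 to 926 with an inhibitor. In LECs with all 3 markers the difference turned to 0.94 and 1.30 (edgeR adjusted p = 1), and without the 24 cells with blood endothelial genes it was -4.69 and -3.64 (0.192 and 0.116). Leaving out any 1 animal kept the IL-17i call (0.00208 to 0.0477). The TNFi call was lost without untreated animal 1, 2 or 3, TNFi animal 1 or 2, or IL-17i animal 1 or 3 (edgeR adjusted p = 0.0683 to 0.520).

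None of the listed lymphatic genes with known roles passed the test with either inhibitor. Ccl21a had 4522, 12355 and 9200 CPM untreated, 19275 and 19175 with TNFi and 19232, 17141 and 13577 with IL-17i. All treated animals lay above all untreated ones, an order that 11.3% of genes had with TNFi and 7.01% with IL-17i, at log2 fold changes of 1.13 (SE 0.302, edgeR adjusted p = 0.620) and 0.93 (SE 0.276, edgeR adjusted p = 0.313). All treated animals were above all untreated ones in Reln as well. Flt4 (0.54 with TNFi, 0.50 with IL-17i) overlapped between untreated and TNFi animals, and Pdpn (0.47 and 0.16) between untreated and IL-17i animals. Cldn11, a tight junction gene, had 60.03, 37.2 and 67.1 CPM untreated and 26.6, 11.9 and 20.2 with IL-17i (-1.53, edgeR adjusted p = 0.327).

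No adhesion or chemokine gene on the list was called, and several varied widely between animals of a group. Icam1, the ligand of leukocyte integrin LFA-1, had 630, 536 and 494 CPM untreated, 945 and 1935 with TNFi and 2368, 1619 and 289 with IL-17i, a range that put 1 IL-17i animal lowest of all 8 (1.37, SE 0.514, edgeR adjusted p = 0.434). Vcam1 had log2 fold changes of 0.70 with TNFi and 1.22 with IL-17i, the T cell attractant Cxcl10 of -1.41 and -0.15, and Cxcl12 of -0.63 and -0.13. Few cells carried the first 2 of these genes. In each tested animal 1 cell gave 26.1% to 65.6% of the Vcam1 UMIs and 34.0% to 92.2% of the Cxcl10 UMIs. Vcam1 was at 2566 CPM in cluster 4 and at 31.1 to 253 in clusters 0 to 3. Without the 24 cells with blood endothelial genes Vcam1 turned to -0.88 with TNFi and stood at 0.76 with IL-17i, Cxcl10 stood at -0.60 and turned to 0.71, and Mrc1 turned to -0.10 with IL-17i. The scavenger receptor genes Stab1 (-0.23 and -0.62), Mrc1 (0.34 and 0.42) and Ackr2 (1.18 and 1.03), the egress receptor gene S1pr1 (0.18 and 0.24), Ptx3 (-0.65 and -0.64) and Nts (-0.10 and 0.39) were not called either. Madcam1, at 15.2, 1.13 and 2.32 CPM over the libraries, and Mki67, at 7.16, 5.66 and 0 CPM (floor of 3 UMIs, 3.47 CPM), fell below the filter.

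Most gene lists had no member called, at a share of 0.13% called over all genes with IL-17i and 0% with TNFi, and these counts of 0 show nothing particular to the lists. In IL-17i against untreated LECs, 0 of 28 tested lymphatic fate and growth factor genes, 0 of 18 leukocyte trafficking genes, 0 of 15 cytokines and chemokines, 0 of 26 interferon response genes, 0 of 18 TNF and NF-kB feedback genes and 0 of 17 cytokine receptors were called. Their median log2 fold changes were 0.08, 0.30, 0.28, 0.23, -0.22 and -0.21, beside 0.02 over all genes. With TNFi the medians were -0.01, 0.56, 0.88, 0.24, 0.29 and 0.22, beside 0.00 over all genes, again with 0 calls.

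Healthy LECs numbered too few for a gene test and are given as counts. Ccl21a had 281, 363 and 355 UMIs among 15846, 38700 and 9912 UMIs of the healthy animals in the untreated, TNFi and IL-17i libraries. H2-Ab1, Glycam1 and Sparcl1 had 0 UMIs in all 3. Icam1 had 4, 121 and 2 UMIs and Saa3 had 57, 140 and 3.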

How the data were processed

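The authors deposited raw UMI counts per gene and hashtag for each barcode, and a cell annotation, with no normalization of the counts. Per the file headers, reads of the unsorted samples were counted with Cell Ranger 6.0.0 and those of the FAP+ sort with 5.0.0. The submitters' processing notes give 6.0.6, and mm10 as the build. Here barcodes absent from the annotation were filtered and chosen as described above, and animals were called with HTODemux (Seurat 5.3.0, quantile 0.99). Hashtag doublets and unlabelled barcodes were left out of tests between animals. No doublet caller was run, so doublets of 1 animal remain, and wells were loaded with up to 25000 cells.

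Counts were summed per animal with at least 10 cells and fitted with edgeR 4.0.16 (R 4.3.3; group only, TMM, filterByExpr, adjusted p threshold 0.05). The LEC minus BEC fit held the animal as a block. DESeq2 1.42.0 was an alternative, beside other filters, hashtag calls, marker and cell minimums and leaving out each animal. Shares were tested by exact permutation. Clusters used scanpy 1.11.5 (2000 variable genes, 20 components, 15 neighbours, Leiden resolution 0.5). Positions come from GENCODE M21 and promoters from RefSeq.

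Named genes were up to 8 called genes in each direction with 20 CPM or more, or the 10 genes of smallest p where fewer than 5 were called, and a list of lymphatic genes. The members and the 33 gene lists, of which 1 gene was not in the files, were chosen with earlier results of these data known. Sums of LECs hold 105371 to 458614 UMIs per tested animal, which limits precision for rare transcripts.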

Additional observations from a re-analysis of the deposited data

Results flagged for a closer look

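The difference of Sparcl1 from untreated animals passed the edgeR interaction test between LECs and BECs of the same animals. Its log2 difference was -2.71 with TNFi and -3.44 with IL-17i. The TNFi call was lost in 7 of 8 fits that left out 1 animal, and in untreated animals 1, 2 and 3 a single cell gave 100%, 91.3% and 87.0% of the LEC UMIs. The 24 LECs with blood endothelial genes had 201 CPM of Sparcl1 and the other 274 had 35.0. Without the 24 cells the differences were -4.69 and -3.64, with neither called, and in LECs with all 3 markers they were 0.94 and 1.30.

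A lymphatic signal also appeared outside the rule, among barcodes the authors had annotated. Of 17902 annotated barcodes that passed the limits in the 3 libraries, 22 had a UMI of at least 2 of Prox1, Mmrn1 and Lyve1. By the authors' classes, 9 were Mmp3+ fibroblasts, 5 chondrocytes, 4 Il6+ fibroblasts, 3 lining fibroblasts and 1 an osteoblast. They had 990 CPM of Ccl21a, against 5.22 in all annotated fibroblasts, and 9470 CPM of Dcn, against 12517. Their median was 22736 UMIs, against 15213 in annotated fibroblasts, and 2 were hashtag doublets.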

How the results depend on the processing

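Over the other settings, no change of a called gene in IL-17i against untreated LECs turned direction. Without the filter on low counts, 71 genes were called with TNFi, 112 with IL-17i, 69 between the inhibitors, and 30 and 67 in the LEC minus BEC tests. DESeq2 called 19 with IL-17i, 9 between inhibitors, and 0 and 3 in the LEC minus BEC tests. The highest hashtag as the animal gave 14 with IL-17i and 0 and 2 in the LEC minus BEC tests. All 3 markers gave 8 between inhibitors and 2 and 5 in the LEC minus BEC tests. Leaving out cells over 1% fibroblast RNA gave 1 with IL-17i and 0 and 3 in the LEC minus BEC tests. A minimum of 5 cells gave 0 with IL-17i and 2 between inhibitors; 20 cells gave 6 with TNFi, and the other tests could not be fitted. Without cells with blood endothelial genes, chosen after seeing the data, 1 gene was called with IL-17i, 6 between inhibitors, and 0 and 2 in the LEC minus BEC tests. The sex term, also added later, gave 2 with IL-17i and 2 between inhibitors. Leaving out 1 animal at a time gave 0 to 2 calls with TNFi, 1 to 7 with IL-17i, 0 to 5 between inhibitors, and 0 to 2 and 1 to 6 in the LEC minus BEC tests, and where that left 1 TNFi animal it was assumed to vary like the others.

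With all 3 markers Mgp with TNFi was -1.28, against -1.05 without cells with blood endothelial genes, and the LEC minus BEC differences of Sparcl1 were 0.94 and 1.30 and of Cxcl10 with TNFi 0.11. The cause was not tested. Ptgs2 between inhibitors was 1.92 with the highest hashtag. In the IL-17i library 1 cell held 95.85% of the UMIs of the gene, and no cell over 50% in a tested IL-17i animal. In TNFi animals 1 and 2 a single cell gave 74.07% and 82.35% of the Ptgs2 UMIs.

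The healthy minus arthritic share of cells was -0.478 points with 3 markers (exact permutation p = 0.0625) and -0.712 to -0.465 without 1 animal. Of 12 such fits, 8 missed 0.05 before adjustment. Those that left out a healthy animal had only 16 arrangements each and could not reach 0.05, so their misses show nothing. The spread of endothelial shares among arthritic groups was 10.5 points at 1000 genes (exact permutation p = 0.0393), 6.16 when thinned (exact permutation p = 0.104) and 8.21 to 11.6 without 1 animal. The healthy minus arthritic endothelial share was -3.29 points with 3 markers and -5.77 to 6.70 without 1 animal. Animals could not be paired between treatments because a hashtag number marks a different animal in each library. A library term could not be fitted, since no healthy animal had enough LECs. With 11 to 31 LECs an animal, genes carried by a few cells are poorly measured.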
